A study of Nicotiana with 12 samples.

Results

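The defence genes described here, in tobacco leaves, are GluB, coding for a beta-1,3-glucanase, PR-5, coding for a thaumatin-like protein, and the chitinase genes CHI3 and CHI9. They were chosen by gene symbol in the probe annotation of the array, after earlier results on the same 12 arrays were known, in which GluB and PR-5 had passed the threshold in the stress comparison of transgenic leaves. Each symbol belongs to 1 probe set (a group of probes read as one value), so the genes make up 4 of the 10101 probe sets tested. Since the genes were grouped with their values in view, their levels and differences are given as a description, with intervals and no p-value. No genome position or sequence was used here.

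The study compared wild-type plants (WT) with PSARK::IPT plants (IPT below), in which the cytokinin-making enzyme isopentenyltransferase is expressed from the SARK promoter, taken from a receptor kinase gene of leaf senescence. Plants moved to the greenhouse at 3 weeks of age were given daily 1000 mL (watered) or 300 mL of water a pot (stressed) over 45 days, and leaves were taken at about 10 weeks. Each of the 4 groups (watered WT, stressed WT, watered IPT, stressed IPT) had 3 biological replicates on 1 array each. The labels do not say how many transformation events the IPT line stands for or whether plants were pooled, so the tests measure the spread between these samples.

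GluB, PR-5, CHI3 and CHI9 belong to the pathogenesis-related proteins, which plants make when attacked by microbes and, in part, under other stresses. Beta-1,3-glucanases cut glucans of fungal walls and also callose, the plant's own glucan, and chitinases cut chitin. Thaumatin-like proteins include osmotin, known in tobacco from cells grown in salt. In tobacco and tomato the acidic, secreted forms of these enzymes respond mainly to salicylic acid and the basic, vacuolar forms mainly to ethylene and jasmonate. In tomato CHI3 is an acidic, secreted chitinase and CHI9 a basic, vacuolar one.

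The array carries tomato probes and the RNA is from tobacco, so the level of a probe set was set against its own level in other groups only. The median log2 value of an array was 3.38 to 3.45. Across probe sets, replicates correlated at r from 0.982 to 0.992. CHI9 lay above the array median on 12 of 12 arrays, GluB on 3, PR-5 on 2 and CHI3 on 2. How much of such dim values is background is unknown without detection calls, and a fold between dim values may understate the change in RNA. All 8 leaf marker probe sets (CAB4, CAB5, CAB6A, PETE, PSBO, PSBP, PsbQ and PSBR) stayed at 5.77 or above on every array. The 3 fruit markers E8, PG2 and 2A11 stayed at 3.68 or below. Because levels of different probe sets are not compared here, this does not show that fruit RNA was absent. Bacterial poly-A RNA serves as a control of labelling, and the log2 excess of its 3' over its 5' probe sets (the poly-A excess) differed between groups. It was 2.24 ± 0.07 (SD, n = 3) for watered and 4.36 ± 0.94 for stressed WT arrays, and 2.67 ± 0.45 for watered and 3.42 ± 0.14 for stressed IPT arrays. The log2 level of this control set watered WT apart, at a mean of 10.06 (10.02 to 10.11). IPT arrays averaged 8.58 with stress and 8.32 without, and WT arrays under stress 8.04. The highest array outside watered WT read 8.67. No fit took this level into account. Its part in WT stress, between watered genotypes and in the difference of stress effects was not tested.

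GluB stood highest in stressed IPT leaves. Its log2 values there were 4.13, 4.44 and 4.53 on replicates 1, 2 and 3. In watered IPT leaves they were 3.44, 3.29 and 3.06. The 2 IPT groups did not overlap, and the 3 stressed IPT arrays were the 3 highest of all 12. On watered WT arrays GluB read 3.04, 2.64 and 2.84, and in stressed WT leaves 2.52, 3.13 and 2.94. The WT groups overlapped, and the lowest watered IPT array, 3.06, lay just above the highest watered WT array, 3.04.

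**Figure D1:**
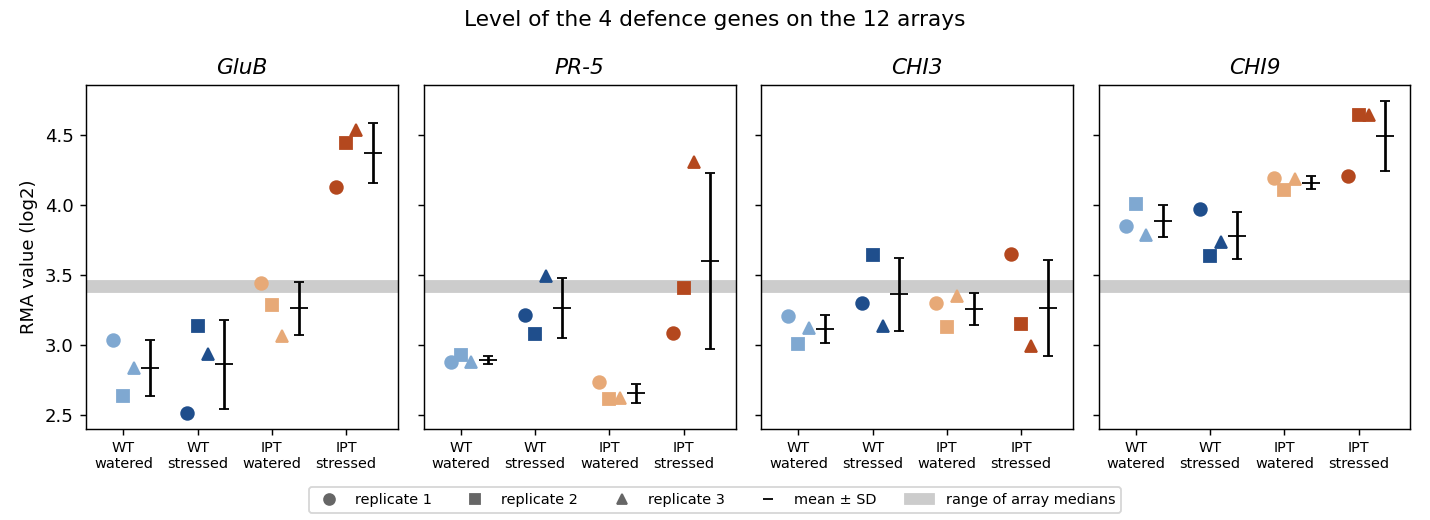
RMA values (log2, vertical axis) of GluB, PR-5, CHI3 and CHI9 in the 4 groups (horizontal axis). Symbols are replicates, bars give the mean ± SD of 3 arrays and the grey band spans the array medians (3.38 to 3.45). GluB in stressed IPT leaves (4.13 to 4.53) lies above every other array, CHI9 is higher on all IPT than on all WT arrays, and PR-5 in stressed IPT leaves spreads from 3.09 to 4.30.

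With stress, GluB rose 2.15-fold in IPT leaves (log2 difference 1.10, SE 0.17, 95% interval 0.75 to 1.46, 3 arrays against 3). In WT leaves the same comparison gave 0.03 (SE 0.17, interval -0.33 to 0.38), which did not pass. The stress difference of IPT minus that of WT was 1.08 (SE 0.24, interval 0.58 to 1.58), and it passed the threshold. Between stressed plants GluB was 2.84-fold higher in IPT (1.51, SE 0.17, interval 1.15 to 1.86). Between watered plants the difference was 0.43 (SE 0.17, interval 0.07 to 0.78) and did not pass. A probe set passed at a limma adjusted p under 0.05 over all 10101 probe sets.

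In the order of GluB levels, watered WT (mean 2.84 ± 0.20, SD, n = 3) overlapped stressed WT (2.86 ± 0.32), which overlapped watered IPT (3.26 ± 0.19). The step from watered to stressed IPT (4.37 ± 0.21) was the only one between neighbours in this order that did not overlap. The IPT stress value stayed between 1.0 and 1.23 and passed in all 12 fits that left out 1 array. The difference between stressed genotypes also passed in all 12, at 1.33 to 1.64. The stress difference of IPT minus WT passed in 6 of those 12 fits, at 0.91 to 1.21 overall. It did not pass without watered WT replicate 1 or 3, stressed WT replicate 1, watered IPT replicate 3 or stressed IPT replicate 2 or 3.

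With the poly-A excess added to the model, the IPT stress value of GluB was 1.02 and its difference between stressed genotypes 1.61, and both passed. The stress difference of IPT minus WT was then 1.23 with a wider SE of 0.30 and did not pass. GluB's IPT stress value ranked 18 among the 10101 differences, counted from the highest.

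PR-5 read 3.09, 3.41 and 4.30 in stressed IPT leaves. In watered IPT leaves it read 2.73, 2.61 and 2.62, the lowest values of the 12 arrays. The IPT groups did not overlap, and replicate 3 of the stressed plants stood well above the other arrays of its group. In watered WT leaves PR-5 read 2.88, 2.93 and 2.88, and in stressed WT leaves 3.22, 3.08 and 3.50. Every stressed array, of either genotype, was thus higher than every watered one. How many of all probe sets do so was not counted. Watered and stressed groups did not overlap for 27.7% of all probe sets in WT and 22.6% in IPT. The stressed arrays of the 2 genotypes overlapped.

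PR-5 rose 1.92-fold with stress in IPT leaves (log2 difference 0.94, SE 0.22, interval 0.48 to 1.40). In WT leaves the difference was 0.37 (SE 0.22, interval -0.09 to 0.83) and did not pass. The stress difference of IPT minus WT, 0.58 (SE 0.31, interval -0.08 to 1.23), did not pass either, so a larger stress difference of PR-5 in IPT than in WT was not shown. Between genotypes PR-5 differed by -0.24 (SE 0.22) in watered and 0.34 (SE 0.22) in stressed leaves, neither past the threshold.

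The call of PR-5 in IPT leaves rested on few arrays. With 1 array left out, 3 of the 12 fits kept it past the threshold, those without stressed WT replicate 2 or 3 or stressed IPT replicate 1. Without stressed IPT replicate 3 the value was 0.59 and did not pass. It did not pass without any 1 of the 6 watered arrays, stressed WT replicate 1 or stressed IPT replicate 2, at values from 0.92 to 1.04. With the poly-A covariate (1.10) and with only the IPT arrays in the fit (0.94) it did not pass. The covariate moved the WT stress value of PR-5 from 0.37 to 0.80 (SE 0.43) and the stress difference of IPT minus WT from 0.58 to 0.30 (SE 0.39), so the values of the 2 genotypes then lay closer together. The covariate is fitted on the spread of the poly-A excess within groups. That spread was largest in stressed WT (SD 0.94, against 0.45 in watered IPT), where replicate 2 read 5.43. PR-5 was lowest of its group on that array, at 3.08, so this shift may rest largely on 1 array. The SD of PR-5 ran from 0.03 in watered WT to 0.63 in stressed IPT, whereas the fit uses 1 spread per probe set.

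**Figure D2:**
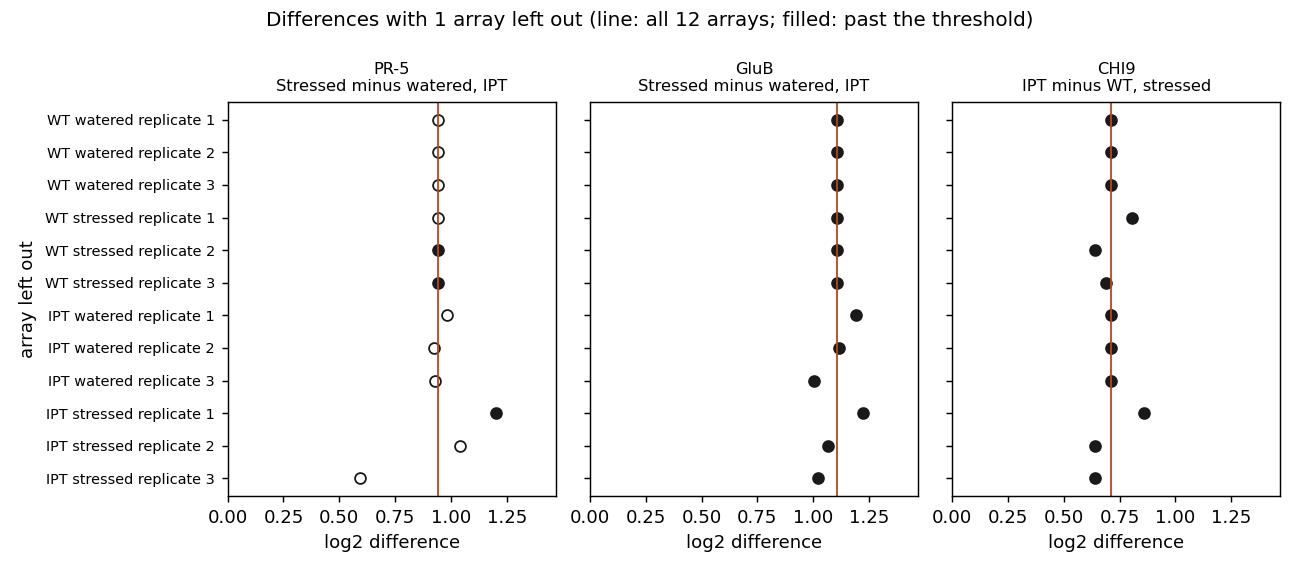
Log2 differences (horizontal axis) with each array left out in turn (vertical axis), for PR-5 and GluB in the IPT stress comparison and CHI9 between stressed genotypes. The line is the value from all 12 arrays and filled points passed the threshold. PR-5 falls to 0.59 without stressed IPT replicate 3, while GluB (1.0 to 1.23) and CHI9 (0.64 to 0.86) passed in every fit.

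CHI9 passed between stressed but not between watered genotypes. On the WT arrays it read 3.85, 4.01 and 3.79 when watered and 3.97, 3.64 and 3.74 under stress. On the IPT arrays it read 4.19, 4.10 and 4.18 when watered and 4.21, 4.64 and 4.64 under stress. All 6 IPT values lay above all 6 WT values. How many of all probe sets do so was not counted. Groups did not overlap for 31.5% of all probe sets between watered and 30.0% between stressed genotypes. Within IPT the groups touched closely, with 4.19 as the highest watered and 4.21 as the lowest stressed value.

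Between stressed plants CHI9 was 1.64-fold higher in IPT (log2 difference 0.71, SE 0.14, interval 0.42 to 1.0). This passed in all 12 fits that left out 1 array (0.64 to 0.86) and with the poly-A covariate (0.61). Between watered plants the difference was 0.28 (SE 0.14, interval -0.01 to 0.57) and did not pass. The stress difference was 0.33 in IPT (SE 0.14, interval 0.04 to 0.62) and -0.10 in WT (SE 0.14, interval -0.39 to 0.19), neither past the threshold. The stress difference of IPT minus WT, 0.44 (SE 0.19, interval 0.03 to 0.85), did not pass. In the order of levels, stressed WT (3.78 ± 0.17) and watered WT (3.88 ± 0.11) overlapped. Watered IPT (4.16 ± 0.05) did not overlap watered WT. Stressed IPT (4.49 ± 0.25) did not overlap watered IPT, though its lowest array, 4.21, lay just above the highest watered one, 4.19.

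CHI3, the other chitinase, passed in none of the 5 comparisons with limma. It read 3.21, 3.01 and 3.12 in watered WT, 3.30, 3.65 and 3.14 in stressed WT, 3.30, 3.13 and 3.35 in watered IPT and 3.65, 3.15 and 2.99 in stressed IPT. All 4 groups overlapped their neighbours, and stressed IPT alone spanned 2.99, the lowest of the 12 values, to 3.65, a level also reached in stressed WT. The stress difference was 0.25 in WT (SE 0.16, interval -0.10 to 0.60) and 0.01 in IPT (SE 0.16, interval -0.34 to 0.36). Between genotypes it was 0.14 in watered (interval -0.20 to 0.49) and -0.10 in stressed leaves (interval -0.45 to 0.25). On these intervals a rise of CHI3 of up to 1.28-fold with stress in IPT lies within the error. With the poly-A covariate the WT stress value of CHI3 turned to -0.39 and the difference between stressed genotypes to 0.19.

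**Figure D3:**
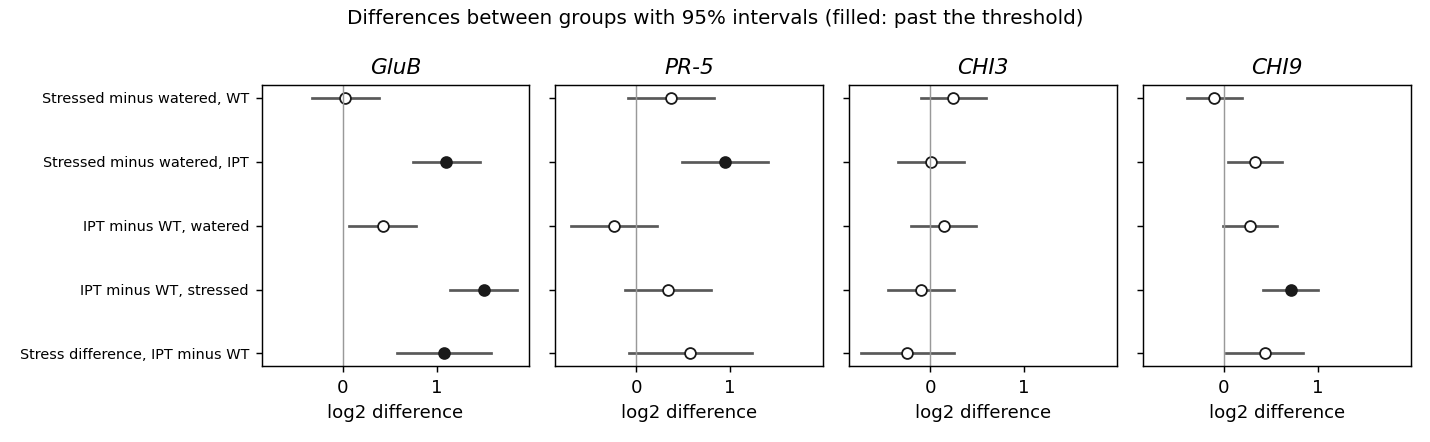
Log2 differences (horizontal axis) of GluB, PR-5, CHI3 and CHI9 in the 5 comparisons (vertical axis), with 95% intervals from limma; filled points passed the threshold. GluB passed in 3 comparisons (1.10, 1.51 and 1.08), PR-5 in 1 (0.94), CHI9 in 1 (0.71) and CHI3 in none.

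Counted over the 4 genes, 2 passed in the IPT stress comparison, where 1.36% of all probe sets passed, and 3 had groups that did not overlap, against 22.6% of all probe sets. In WT stress 0 passed (11.3% of all probe sets) and 1, PR-5, had groups that did not overlap (27.7%). Between watered genotypes 0 passed (13.8%) and 3 did not overlap (31.5%), GluB and CHI9 being higher and PR-5 lower in IPT. Between stressed genotypes 2 passed (16.7%) and the same 2, GluB and CHI9, did not overlap (30.0%). For the stress difference of IPT minus WT 1 passed, against 1.90% of all. An unadjusted p under 0.05 from limma was found for 0 of the 4 genes in WT stress (2528 of all 10101 probe sets), 3 in IPT stress (1437), 1 between watered genotypes (2555), 2 between stressed genotypes (2768) and 2 for the stress difference of IPT minus WT (1432). Because these values were known when the genes were grouped, nothing is read from the counts or from the medians that follow. The median log2 difference of the 4 genes was 0.64 in IPT stress, beside 0.00 over all probe sets, and 0.14 in WT stress, beside 0.04. In IPT stress the 4 values ran from 0.01 for CHI3 to 1.10 for GluB. It was 0.21 between watered genotypes (0.02 over all) and 0.52 between stressed genotypes (-0.01 over all). The comparisons share arrays, so their values are not independent.

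The leaf is a mix of cells, and a higher value from more cells that express a gene cannot be told apart from more RNA per cell. On the stressed IPT arrays, where GluB and PR-5 rose, the poly-A excess was 0.76 above that of the watered IPT arrays (exact permutation p = 0.1, two-sided). The 3' minus 5' difference of GAPDH was 0.56 higher (exact permutation p = 0.1) and that of actin 0.81 higher (exact permutation p = 0.3). For actin this difference was negative in every group, with means from -2.92 in watered WT to -1.99 in stressed WT. With 3 arrays a group, 0.1 is the lowest p possible. Between stressed genotypes, where GluB and CHI9 were higher in IPT, the poly-A excess differed by -0.93, IPT minus WT (exact permutation p = 0.1). The 3' minus 5' value differed by 0.13 for GAPDH (exact permutation p = 0.3) and by -0.08 for actin (exact permutation p = 0.8). Apart from the covariate values given for each gene, the part of labelling in these results was not tested.

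Other defence genes were followed from symbol lists that also were drawn up with earlier results known. The lists hold 57 genes besides the 4, each counted by its brightest probe set. In IPT stress, where GluB and PR-5 rose, 0 of the 57 passed with limma, beside 1.36% of all probe sets. An unadjusted p under 0.05 from limma was found for 7 of the 57, beside 1437 of all 10101 probe sets. Both counts lie near the shares over all probe sets, so they do not set the listed genes apart. Their median log2 difference was 0.06, beside 0.00 over all. The lists hold no other beta-1,3-glucanase to set beside GluB. The chitinases CHI14 (log2 difference 0.12) and CHI17 (0.18) and the osmotin-like NP24-I (-0.03) did not pass there. Of other pathogenesis-related families, the PR-1 genes P4 (-0.35) and PR1b1 (0.01) did not pass. Nor did PR-P2 of the PR-4 type (0.15) or TSI-1 of the PR-10 type (0.18). None of the 7 passed in WT stress or between stressed genotypes either, where 11.3% and 16.7% of all probe sets passed. With so few genes, a count of 0 is near those shares, and nothing is read from it. PR-P2 was lower in watered IPT than in watered WT leaves (log2 difference -0.52, SE 0.14, limma adjusted p = 0.0218), the comparison in which GluB stood at 0.43, CHI9 at 0.28, CHI3 at 0.14 and PR-5 at -0.24.

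Between stressed genotypes, where GluB and CHI9 were higher in IPT, 13 of the 57 passed, 7 higher and 6 lower (22.8%, beside 16.7% of all probe sets), with a median of -0.02. HPL, a hydroperoxide lyase of the oxylipin pathway, was higher in IPT (1.55, SE 0.24, limma adjusted p = 0.000218). So was PTI4, an ethylene-response factor that in tomato binds promoters of pathogenesis-related genes (0.90, SE 0.16, adjusted p = 0.00078). Wfi1, an NADPH oxidase (0.68, SE 0.21), and NML1, a relative of the salicylate receptor NPR1 (0.36, SE 0.12), were also higher. With 1 array left out, Wfi1 passed in 8 of 12 fits and NML1 in 1, and neither passed with the poly-A covariate. RBOH1, also an NADPH oxidase, was lower (-0.67, SE 0.22). RBOH1 passed with that covariate, but in only part of the fits with 1 array left out. JERF1, a further ethylene-response factor (-1.30, SE 0.16), the arginase ARG1 (-1.09, SE 0.14) and the glutathione peroxidase GPXle-1 (-0.79, SE 0.11) were lower.

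In WT stress, where none of GluB, PR-5, CHI3 and CHI9 passed, 8 of the 57 did, 5 higher and 3 lower (14%, beside 11.3% of all probe sets). ARG1 (0.76, SE 0.14), JERF1 (0.74, SE 0.16) and GPXle-1 (0.62, SE 0.11) rose, and AOC, an allene oxide cyclase of jasmonate synthesis (-0.74, SE 0.14), and PTI4 (-0.62, SE 0.16) fell. PTI4 did not pass without watered WT replicate 2 or 3 or stressed WT replicate 2 or 3. With the poly-A covariate 0 of the 57 passed in WT stress, while the values of ARG1 (0.96, SE 0.27), AOC (-0.72, SE 0.28) and GPXle-1 (0.63, SE 0.21) were about as large as without it and their SEs larger. JERF1 was then 0.52 (SE 0.32) and PTI4 -0.47 (SE 0.33). Between watered genotypes 8 passed, 2 higher and 6 lower in IPT (14%, beside 13.8% of all probe sets). HPL (1.17, SE 0.24) and ERF4 (0.60, SE 0.19) were higher, and RBOH1, an NADPH oxidase (-1.02, SE 0.22), JERF1 (-0.80, SE 0.16), the proteinase inhibitor gene ARPI (-0.56, SE 0.16) and the jasmonate receptor COI1 (-0.41, SE 0.12) were lower. With 1 array left out, PR-P2 passed in 9 of 12 fits, COI1 in 8, ARPI in 7 and ERF4 in 3. ERF4 also did not pass with arrays centred on their medians, with quantile normalization or with the poly-A covariate.

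**Figure D4:**
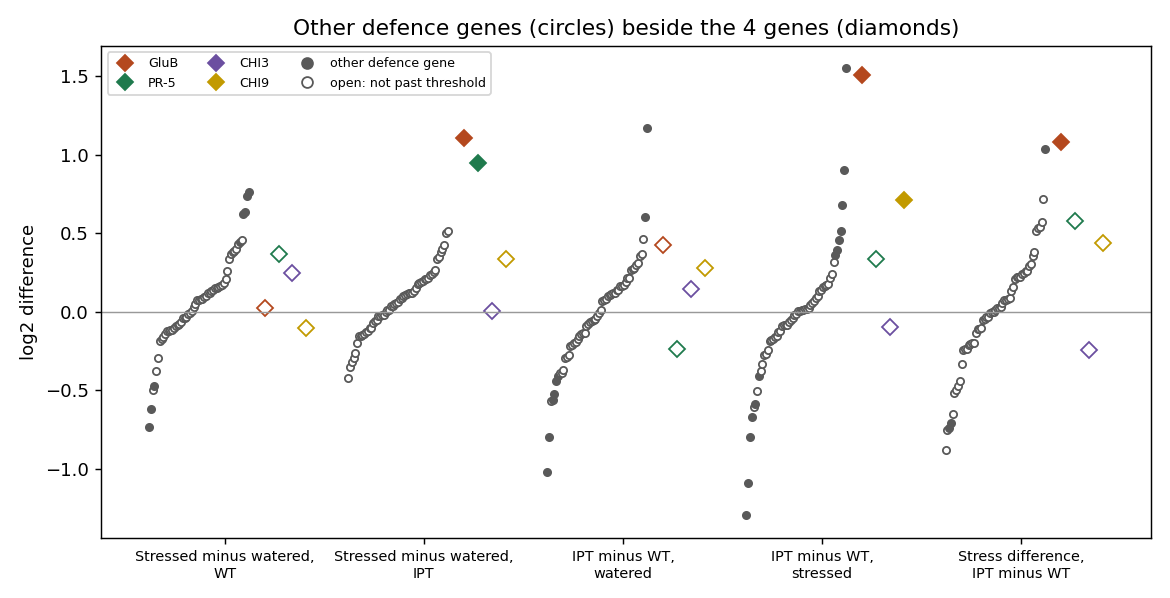
Log2 differences (vertical axis) of the 57 other defence genes (circles, sorted) and of GluB, PR-5, CHI3 and CHI9 (diamonds) in the 5 comparisons (horizontal axis); filled symbols passed the threshold. In IPT stress, where 1.36% of all probe sets passed, GluB (1.10) and PR-5 (0.94) are filled and 0 of the 57 circles are. Between stressed genotypes, where 16.7% of all probe sets passed, 13 circles are filled, on both sides of 0.

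The named genes whose values ran most like those of each gene over the 12 arrays were sought among 622 genes, as a description. For GluB they were cdc2A-2 (Pearson r 0.90, Spearman rho 0.84), sbt4a (0.90 and 0.75) and hdc (0.87 and 0.81). For CHI9 they were Dea1 (0.90 and 0.85), hdc (0.90 and 0.87) and Wfi1 (0.89 and 0.73), so hdc stood among the 3 for both. For PR-5 they were PME2.1 (0.90 and 0.78), Man4 (0.90 and 0.83) and CycA1 (0.80 and 0.74), and for CHI3 LePK5 (0.82 and 0.64), 20ox-2 (0.76 and 0.66) and TMP (0.75 and 0.68). With group means taken out, r with GluB was 0.67 for cdc2A-2, 0.24 for sbt4a and 0.27 for hdc. With CHI9 it was 0.55 for Dea1, 0.42 for hdc and 0.82 for Wfi1, and for the genes of PR-5 and CHI3 0.60 to 0.93. Values of sbt4a, hdc, PME2.1, Man4, LePK5, 20ox-2 and TMP lay below every array median, at 3.13 or lower. All points share the 4 groups and the arrays, and the 3 highest genes changed with the measure of likeness.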

How the data were processed

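Leaf RNA was extracted with Trizol, labelled from 6 ug of total RNA and hybridised to the Affymetrix Tomato Genome Array, per the labels' protocols. RMA log2 values are what the authors deposited, per the submitters' processing notes. The RMA version is not given in the sources at hand. RMA corrects background, normalises arrays and sums up probes, and its treatment of dim probe sets can shrink differences. A range of 1.28 to 13.84 showed the log2 scale. Precision is limited by the number of arrays.

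The 108 control probe sets were left out. The other 10101 were tested with limma 3.58.1 under R 4.3.3 (lmFit and eBayes on the 4 group means of all 12 arrays); residual degrees of freedom were 8 and prior ones 7.99. P-values are two-sided and Benjamini-Hochberg adjusted within a comparison, with a threshold of 0.05; words of direction refer to differences that passed, or to single arrays. Intervals are 95% intervals from the moderated standard errors.

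The 4 genes, the 11 lists and the tests were chosen with earlier results of these data known. Named besides the 4 genes are, per list and comparison, the 2 genes of smallest p among those that passed, and the 3 most alike genes. The other pathogenesis-related genes were added to complete counts. RBOH1 was added between stressed genotypes to stand beside Wfi1, and OPR1 is named for an alternative fit. After the annotation was seen, PR-P2, TSI-1 and NP24-I were added to the lists and TGAS118 and TPI dropped. PTI4, PTI5 and PTI6 stand in 2 lists.

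Alternative fits centred arrays, applied quantile normalization, took brighter probe sets or the compared arrays only, weighted arrays, used a robust intensity trend, blocked on replicate number, added the poly-A excess as a covariate, or left out each array. The fit was tested on simulated data.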

Additional observations from a re-analysis of the deposited data

Results flagged for a closer look

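The stress difference in IPT minus that in WT passed the threshold for 4 of the genes described. GluB had 1.08, from 1.10 in IPT and 0.03 in WT; for this gene, chosen with its values known, the number is a description. PTI4 had 1.04 (SE 0.23, limma adjusted p = 0.0244), from 0.42 in IPT and -0.62 in WT. GPXle-1 had -0.74 (SE 0.15, limma adjusted p = 0.0141), from -0.12 in IPT and 0.62 in WT. LAPA2, a leucine aminopeptidase of the wound response in tomato, had -0.71 (SE 0.17, limma adjusted p = 0.0454), from -0.26 in IPT and 0.45 in WT. Of the 12 fits that left out 1 array, GPXle-1 passed in 12, GluB in 6, PTI4 in 5 and LAPA2 in 2. With the poly-A covariate none of these genes passed, at 1.23 for GluB, 0.95 for PTI4, -0.75 for GPXle-1 and -0.73 for LAPA2.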

How the results depend on the processing

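Across the alternatives, GluB in IPT stress and between stressed genotypes, and CHI9 between stressed genotypes, kept direction and passed wherever the probe set was in the fit. Among the brighter probe sets only CHI9 of the 4 genes was left, so the genes passing there were 0 in IPT stress, 1 between stressed genotypes and 0 for the difference of stress effects. The poly-A covariate is fitted on the spread within groups, which was largest in stressed WT (SD 0.94), where replicate 2 read 5.43. This covariate left 1 gene, GluB, passing in IPT stress and 0 for the difference of stress effects. A fit of only the IPT arrays left 1 in IPT stress, GluB. Leaving out 1 array gave 1 to 2 in IPT stress and 0 to 1 for the difference of stress effects.

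Over all probe sets, the 1142 calls in WT stress became 59 with the poly-A covariate and 694 with only the WT arrays, and 748 to 1142 with 1 array left out. The 137 calls in IPT stress became 254 with array weights, 228 with an intensity trend and 64 with the covariate, and 54 to 244 with 1 array left out. The 192 calls for the difference of stress effects became 300 among brighter probe sets, 332 with the trend and 120 with the covariate. Of the other defence genes, 0 passed in WT stress with the covariate (ARG1 at 0.96, AOC at -0.72 and GPXle-1 at 0.63, beside 0.76, -0.74 and 0.62, with larger SEs), 1 (OPR1) in IPT stress with only the IPT arrays, and 8 between stressed genotypes with the covariate or with only those arrays. For the difference of stress effects 3 passed, and 5 did among brighter probe sets, 1 with the replicate block and 0 with the covariate. Leaving out 1 array gave 4 to 8 of these genes in WT stress, 3 to 8 between watered genotypes, 7 to 12 between stressed genotypes and 1 to 4 for the difference of stress effects. The causes were not tested, apart from the fewer probe sets or arrays.

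With the replicate block the same counts of the 4 genes passed, 2 in IPT stress, 2 between stressed genotypes and 1 for the difference of stress effects, and 1027, 110, 1304, 1587 and 165 of all probe sets in WT stress, IPT stress, between watered and between stressed genotypes and for the difference of stress effects. Same-numbered arrays of different groups did not deviate together (r from -0.19 to 0.07 over 18 pairs), so the numbers were not taken as pairs. Of the 3 most alike genes, 0 or 1 stayed with rank correlation or group means.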

Other observations

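Within the stressed IPT group, replicate 1 was the lowest array for GluB (4.13), PR-5 (3.09) and CHI9 (4.21) and the highest for CHI3 (3.65). Its poly-A 3' minus 5' difference was 3.58, against 3.34 and 3.35 on the other arrays of the group. In stressed WT, replicate 2 had the largest poly-A difference of all arrays, 5.43, and there CHI3 was highest (3.65) and PR-5 (3.08) and CHI9 (3.64) were lowest, while GluB was highest (3.13). In watered IPT, replicate 3 had the largest poly-A difference of its group, 3.11, with CHI3 highest (3.35) and GluB lowest (3.06). PR-5 (2.62) and CHI9 (4.18) on that array lay between the other arrays of the group. In watered WT, replicate 3 had the largest poly-A difference, 2.32. There CHI3 was highest on replicate 1 (3.21, against 3.12 on replicate 3) and GluB on replicate 3 lay between the others (2.84). PR-5 (2.877, against 2.882 on replicate 1) and CHI9 (3.79) were lowest on replicate 3. Whether labelling sets these values was not tested.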
